A study of Mus musculus with 37 samples.

Results

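The whole mammary gland of PTP1B wild-type (WT) mice at day 7 of pregnancy was compared with the same tissue at day 3, over 7 of the 37 arrays of the series. The arrays were taken by their labels alone: 3 arrays of WT glands at day 3 (WT P3) and 4 arrays of WT glands at day 7 (WT P7). All animals of both groups were untreated FVB females mated at 12 weeks of age, and the day was counted from the vaginal plug. Knockout (KO) glands of the same days, 3 arrays at day 3 and 5 at day 7, came from PTP1B -/- mice that had been backcrossed to FVB for at least 7 generations, and they share no array with the WT comparison. PTP1B is the tyrosine phosphatase encoded by Ptpn1. The labels do not say whether an array holds 1 animal or a pool, nor whether replicates came from separate animals. The p-values therefore measure the spread between arrays within groups, which may be technical. That spread was estimated for each gene over all 37 arrays of the series, not from the 7 compared arrays alone.

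Early pregnancy rebuilds the mammary gland. Progesterone acts on hormone-sensing luminal cells, which pass the signal on to their neighbours through RANK ligand and other secreted factors; prolactin then drives luminal cells toward alveoli through JAK2 and STAT5. Myoepithelial cells, the contractile layer around ducts and alveoli, and a capillary bed grow with the alveoli, while adipocytes fill most of the fat pad at these days.

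Each value is the log2 intensity of a probe set, and 16855 genes with 1 probe set each were tested. Array medians over the series lay between 6.52 and 6.79, and no depth is defined for arrays, so their number limits the precision. Ptpn1 was between 7.90 and 8.92 in the 7 WT arrays, while its group means were 5.87 ± 0.12 (SD, n = 3) in KO P3 and 5.71 ± 0.23 (SD, n = 5) in KO P7. The defining markers of the labelled tissue were present in all 7 WT arrays: the luminal keratin Krt8 ran from 11.27 to 11.91, the basal keratin Krt14 from 8.58 to 9.68 and the adipocyte hormone Adipoq from 12.11 to 12.61.

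WT P7 replicate 1 stood apart in lymphocyte transcripts. The B cell antigen Ms4a1 (CD20) was 8.19 in it and between 4.38 and 5.41 in the other 6 arrays, and the complement receptor Cr2 was 7.00 in it against 4.26 to 4.80. It was the highest of the 7 arrays in 16 of 16 B lymphocyte markers, in 15 of 17 T lymphocyte markers, in 17 of 18 interferon-induced genes, in 14 of 20 milk genes and in 12 of 15 myoepithelial markers. Its Ptpn1 value, 7.90, was the lowest of the 7 WT arrays, of which the other 6 lay between 8.56 and 8.92. Results are therefore given with this array and without it. The part of its lymphocyte transcripts in the results was not tested.

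**Figure D1:**
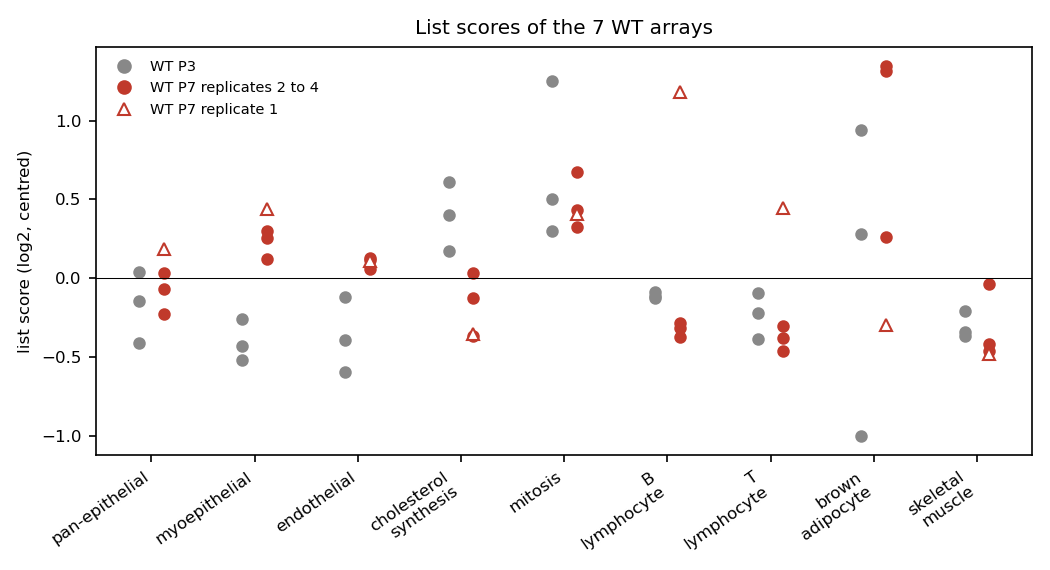
List scores of the 7 WT arrays, in log2 units (a gene's mean over the 37 arrays was subtracted from its values, which were then averaged over the list); grey points are the 3 WT P3 arrays, red points WT P7 replicates 2 to 4 and open triangles WT P7 replicate 1. The triangle lies at 1.18 in the B lymphocyte list, where the other arrays lie at or below -0.09, whereas the myoepithelial and endothelial scores of all 4 WT P7 arrays lie above those of all 3 WT P3 arrays.

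Of the genes tested, 883 rose and 810 fell from day 3 to day 7, together 1693 or 10.0% of all (limma, Benjamini-Hochberg adjusted p under 0.05; 5.24% rose and 4.81% fell). Changes were mostly moderate, since 72 genes rose and 45 fell by more than 1 on the log2 scale, and the median change of all genes tested was -0.02. Without WT P7 replicate 1, 473 genes rose (2.81%) and 523 fell (3.10%), together 5.91% of those tested; 986 genes were called both ways, which is 58.2% of the 1693 and 99.0% of the 996. A further 707 genes were called only with this array and 10 only without it. Leaving out WT P3 replicate 1 lowered the count further, to 576 genes. The count was 1438 without WT P3 replicate 2 and 1243 without WT P3 replicate 3. With each of the 7 arrays left out in turn, 444 genes kept their call throughout.

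Among genes called with and without WT P7 replicate 1 whose arrays did not overlap between the days, the largest rises were those of Olah, Irf4 and Erbb4. Olah, the thioesterase that ends fatty acid chains at medium length in the mammary gland, was 4.97, 5.95 and 5.98 in the 3 WT P3 arrays and 9.28, 8.32, 7.13 and 7.85 in WT P7 replicates 1 to 4. That is a 5.69-fold rise (log2 change 2.51 ± 0.57 SE, adjusted p = 0.00505; without replicate 1 2.13 ± 0.59, adjusted p = 0.0290), although the adjusted p of Olah was 0.0555 without WT P3 replicate 1. Fmod, a collagen-binding proteoglycan, rose 4.05-fold (2.02 ± 0.24, adjusted p = 4.17e-06), and Rnase1, a secreted ribonuclease, rose 3.91-fold (1.97 ± 0.36, adjusted p = 0.000900). Nat8f5, of an acetyltransferase family, rose 4.07-fold, Capn6, a calpain without protease activity, 3.55-fold, and Sorcs1, a sorting receptor, 3.30-fold. Scnn1g, a subunit of the epithelial sodium channel, rose 3.17-fold, and Depp1 and Kctd4 each rose 2.96-fold. Of the 30 largest rises and falls, 26 kept their call with each of the 7 arrays left out, against 444 of all 1693 calls. The 30 were chosen for a call without WT P7 replicate 1 and for arrays that did not overlap. Their count is therefore no independent check.

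**Figure D2:**
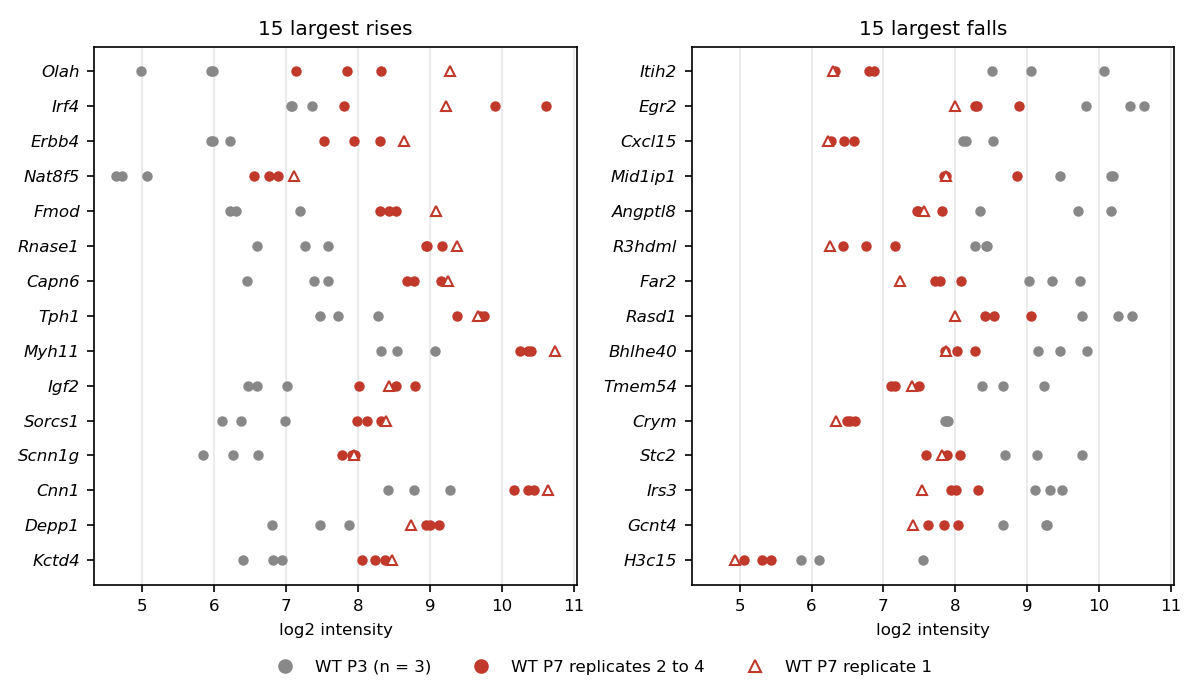
Log2 intensity of the 15 largest rises and 15 largest falls among genes called with and without WT P7 replicate 1 whose arrays do not overlap between the days; grey points are the 3 WT P3 arrays, red points WT P7 replicates 2 to 4 and open triangles WT P7 replicate 1. The triangle lies at the outer edge of the WT P7 arrays for Olah (9.28) and inside them for Irf4 (9.23), and the arrays of Olah and Irf4 spread more widely at day 7 than those of Tph1 or Myh11.

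By the same rule the largest falls were those of Itih2, Egr2 and Cxcl15. Itih2, a heavy chain of the hyaluronan-binding inter-alpha-trypsin inhibitors, was 9.05, 10.07 and 8.51 at day 3 and 6.29, 6.80, 6.87 and 6.33 at day 7. All 4 day 7 arrays were well under the lowest day 3 array, and Itih2 fell 6.22-fold (-2.64 ± 0.36 SE, adjusted p = 3.71e-05; without replicate 1 -2.54 ± 0.39, adjusted p = 0.000295). Cxcl15, a chemokine, fell 3.68-fold, and Crym, a protein that binds thyroid hormone, fell 2.62-fold. Crym was 7.86 to 7.90 at day 3 and 6.33 to 6.61 at day 7. Mid1ip1, which activates acetyl-CoA carboxylase, fell 3.55-fold, Angptl8, a feeding-induced regulator of lipoprotein lipase, 3.53-fold, Far2, which reduces fatty acids to alcohols, 3.17-fold, and Irs3, an insulin receptor substrate of rodent adipocytes, 2.56-fold. Angptl8 lost its call without WT P3 replicate 1 (adjusted p = 0.153) and without WT P3 replicate 2 (adjusted p = 0.0617). R3hdml fell 3.31-fold, Rasd1, a Ras-like protein induced by glucocorticoids, 3.16-fold, Tmem54 2.77-fold and Gcnt4, a mucin glycosyltransferase, 2.52-fold. H3c15 fell 2.49-fold, but histone H3 genes are near-identical copies, so its probe set may read several of them, and its adjusted p was 0.0880 without WT P3 replicate 3.

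The contractile genes in the myoepithelial list passed the test and its keratins did not, although Krt14 changed as much as some called members. Of 15 myoepithelial markers 6 rose (40.0%, against 5.24% of all genes tested) and none fell. Their median change was 0.73 against -0.02 over all genes tested. Without WT P7 replicate 1, 4 rose (26.7% against 2.81%) and the median was 0.66. Myh11, the smooth muscle myosin heavy chain, was 8.32, 9.06 and 8.54 at day 3 and 10.74, 10.41, 10.26 and 10.37 at day 7, a 3.48-fold rise (1.80 ± 0.20 SE, adjusted p = 1.95e-06; without replicate 1 1.70 ± 0.21, adjusted p = 1.70e-05). Cnn1, the actin-binding calponin, was 8.42 to 9.27 at day 3 and 10.17 to 10.65 at day 7 and rose 3.00-fold (1.58 ± 0.24, adjusted p = 0.000108). Mylk, the kinase that starts smooth muscle contraction, rose by 1.11 ± 0.13, and Acta2, smooth muscle actin, by 0.74 ± 0.10. Actg2 (0.84) and Tagln (0.69) were called only with WT P7 replicate 1, with adjusted p of 0.0622 and 0.0586 without it. The changes of the basal keratins were 0.37 ± 0.27 for Krt5, 0.77 ± 0.26 for Krt14 and -0.06 ± 0.27 for Krt17, and that of the basal transcription factor Trp63 was 0.21 ± 0.18. Krt14 was 8.58 to 8.86 at day 3 and 9.13 to 9.68 at day 7. Oxtr (0.75) and Lgr6 (0.73) were not called either. In 11 of the 15 markers all day 7 arrays lay above all day 3 arrays, while 26.3% of all genes tested did not overlap in either direction. A difference between called and other members was not tested. The called members are also made by the smooth muscle of vessels, and in RNA of a whole gland more cells of a type and more RNA per cell cannot be told apart.

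Endothelial markers rose with them. Of 19, 10 rose (52.6%, against 5.24% of all genes tested) and none fell, with a median of 0.57. Without WT P7 replicate 1, 8 rose (42.1% against 2.81%), with a median of 0.58. The junction cadherin Cdh5 was 10.42, 10.74 and 10.07 at day 3 and 11.15, 11.03, 11.14 and 11.11 at day 7, so the day 7 arrays lay close to each other and above every day 3 array (0.70 ± 0.13 SE, adjusted p = 0.000923; without replicate 1 adjusted p = 0.00429). Mmrn2, an endothelial matrix protein, and Vwf, the clotting factor carrier of vessel walls, each rose by 0.77 (± 0.13 and ± 0.19). The tight junction protein Cldn5 rose by 0.97 ± 0.26, but its adjusted p was 0.112 without WT P3 replicate 1 and 0.0907 without WT P3 replicate 3. The angiopoietin receptor Tek and its relative Tie1, the TGF-beta co-receptor Eng, the phosphatase Ptprb, Pecam1 and Esam made up the other called members. The receptors of VEGF had changes of 0.54 ± 0.19 (Kdr, adjusted p = 0.0665) and 0.52 ± 0.19 (Flt1, adjusted p = 0.0832). Without WT P3 replicate 1 or without WT P3 replicate 3, 5 of the 19 were called, and 6 without WT P7 replicate 3. Matrix genes of fibroblasts had a median of 0.06, with 1 of 21 called higher (Col3a1, 0.44) and 1 called lower, the mural cell receptor Pdgfrb (-0.52 ± 0.11). That is 9.52% of the list against 10.0% of all genes tested.

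**Figure D3:**
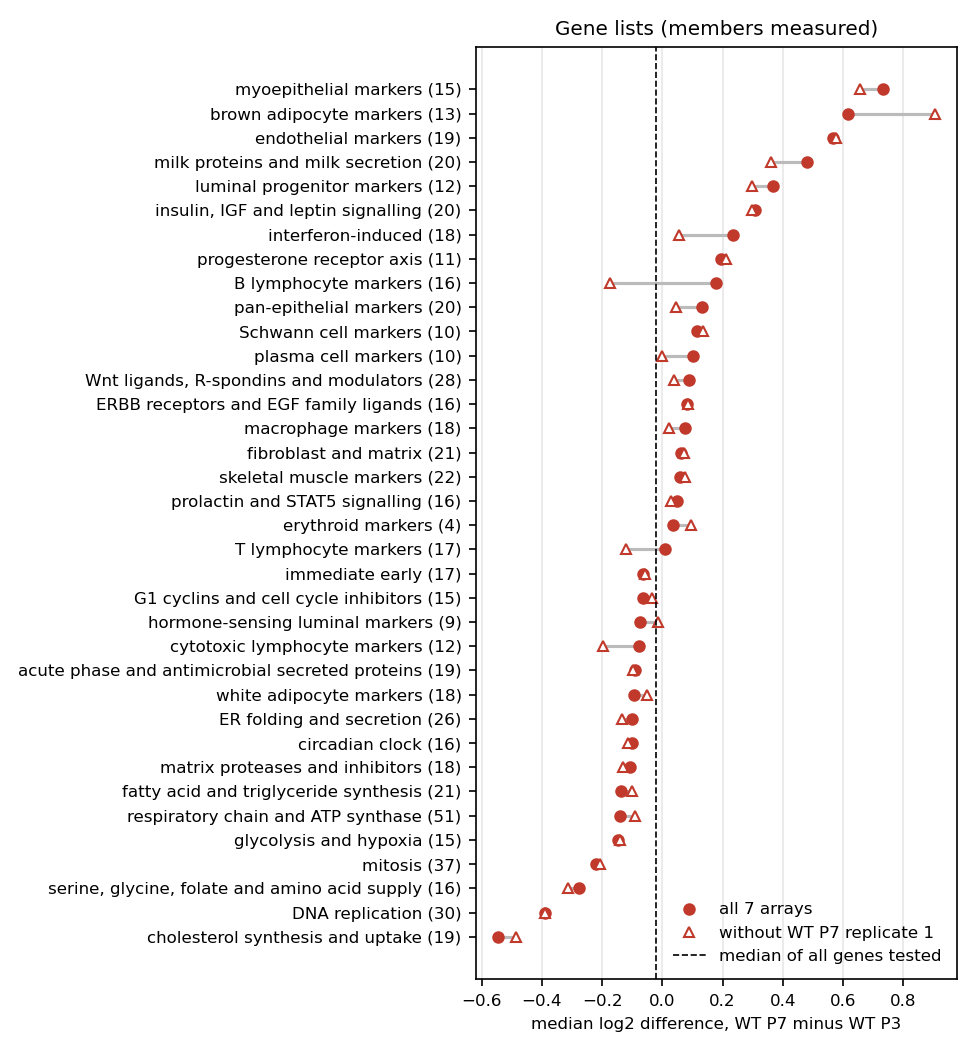
Median log2 difference, WT P7 minus WT P3, of each of the 36 gene lists, with all 7 arrays (filled points) and without WT P7 replicate 1 (open triangles); the dashed line is the median of all genes tested (-0.02) and the number of members measured stands in brackets. The myoepithelial and endothelial lists lie furthest to the right among lists with called members and the cholesterol list furthest to the left (-0.55), and the B lymphocyte list moves from 0.18 to -0.17 when replicate 1 is left out.

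Receptors and ligands of the ERBB family moved in both directions. Erbb4, the receptor for neuregulins and betacellulin that luminal cells need for STAT5 activity in lactation, was 5.95, 5.98 and 6.22 at day 3 and 8.64, 7.94, 7.53 and 8.31 at day 7, a 4.15-fold rise (2.05 ± 0.29 SE, adjusted p = 5.33e-05; without replicate 1 1.88 ± 0.30, adjusted p = 0.000487). Its day 7 arrays differed among themselves, but none came near the day 3 arrays. The other receptors had changes of 0.12 ± 0.16 (Egfr), 0.10 ± 0.14 (Erbb2) and 0.54 ± 0.24 (Erbb3), and none of the 3 passed the test. Among ligands, Btc (betacellulin) rose by 0.49 ± 0.15 while Ereg (epiregulin) fell by 0.81 (± 0.20), and Epgn (epigen) fell by 0.40 with all arrays only. Errfi1, which inhibits EGF receptors, rose by 0.77 ± 0.21. Of the 15 members tested, 3 rose and 2 fell, 33.3% against 10.0% of all genes tested. Without WT P7 replicate 1, 3 rose and 1 fell, 26.7% against 5.91%. Single arrays ended some of these calls: Ereg lost its call without WT P3 replicate 3 (adjusted p = 0.158), and Errfi1 (0.176) and Btc (0.187) lost theirs without WT P3 replicate 1. Btc was also lost without either other day 3 array and without WT P7 replicate 2 or WT P7 replicate 3 (adjusted p up to 0.129).

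Insulin and IGF genes formed another list with many rises, 7 of 20 against 1 fall (3 and 0 without WT P7 replicate 1), with a median of 0.31. The share called was 40.0% against 10.0% of all genes tested, and 15.0% against 5.91% without that array. Igf2, the fetal growth factor, was 6.6, 7.01 and 6.47 at day 3 and 8.44, 8.79, 8.02 and 8.54 at day 7, a 3.37-fold rise that was as large without replicate 1 (1.75 ± 0.23 SE with it and 1.76 ± 0.26 without it; adjusted p = 2.66e-05 and 0.000130). Igf1 had a change of -0.32 ± 0.16 and did not pass the test. Both binding proteins that were called rose: Igfbp3 by 1.0 ± 0.23 and Igfbp5 by 0.64 ± 0.13. Igfbp5 was 11.14 to 11.53 at day 3 and 11.82 to 12.12 at day 7. The receptors Igf1r (0.51) and Igf2r (0.31), the adaptor Irs2 (0.70) and the insulin-restrained transcription factor Foxo1 (0.55) rose with all arrays only, and the kinase Akt2 (-0.40) fell with all arrays only. Their adjusted p without replicate 1 lay between 0.0504 (Igf2r) and 0.0947 (Akt2). The leptin receptor Lepr (0.54 ± 0.33) did not pass the test either way.

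The share of called genes was 9.09% in the progesterone receptor list, 6.25% in the prolactin and STAT5 list and 22.2% in the hormone-sensing luminal list. Among all genes tested it was 10.0%. RANK ligand, Tnfsf11, was 8.87 to 9.05 at day 3 and 9.92, 9.55, 9.54 and 9.55 at day 7, so the groups did not overlap and replicate 1 was the highest. Tnfsf11 rose by 0.66 ± 0.17 (SE, adjusted p = 0.0121), with 0.57 ± 0.18 and adjusted p = 0.0550 without replicate 1. It was the 1 called gene of 11 in the progesterone receptor list, in which Pgr itself had a change of 0.20 ± 0.31 and Rspo1, a luminal Wnt amplifier, 1.30 ± 0.52 (adjusted p = 0.113). In the prolactin and STAT5 list 1 of 16 rose, the feedback inhibitor Socs2 (0.66 ± 0.16; adjusted p = 0.0522 without WT P3 replicate 1 and 0.0644 without WT P3 replicate 2), while the inhibitor Cish (0.33 ± 0.31), the alveolar factor Elf5 (0.77 ± 0.35) and Stat5a (-0.04 ± 0.11) did not pass the test. Of 9 markers of hormone-sensing luminal cells 2 fell, with and without replicate 1. The pioneer factor Foxa1 was 9.38, 9.67 and 9.38 at day 3 and 8.23 to 8.60 at day 7 (-1.10 ± 0.22, adjusted p = 0.00145), and Stc2, a secreted stanniocalcin, fell 2.56-fold. The oestrogen receptor Esr1, of the same list, had a change of 0.08 ± 0.17, and Cited1 -0.84 ± 0.31 (adjusted p = 0.0769).

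Milk genes were higher on average, and 15.0% of the list rose against 5.24% of all genes tested. Without WT P7 replicate 1 no milk gene passed the test. Glycam1, a milk mucin, was 5.38, 6.92 and 8.09 at day 3 and 11.89, 9.28, 8.34 and 11.51 at day 7. This is the largest called change of all (log2 change 3.46 ± 1.12 SE, adjusted p = 0.0459), but the arrays of each day spread widely and the adjusted p was 0.152 without replicate 1. The phosphate transporter Slc34a2 (1.26 ± 0.41) and the milk fat globule enzyme Xdh (0.41 ± 0.13) were the other members that rose, 3 of 20 in all, with a median of 0.48 (0.36 without replicate 1). The caseins did not pass: Csn2 changed from a mean of 11.6 to 12.6 (1.04 ± 0.52) and Csn1s1 from 11.6 to 12.3 (0.74 ± 0.36), and the whey protein Wap had a change of 1.37 ± 0.70. Without WT P3 replicate 1, without WT P7 replicate 2 or without WT P7 replicate 4 the number of called milk genes was also 0. Luminal progenitor and pan-epithelial markers had medians of 0.37 and 0.13 and no called member. Ehf, an epithelial ETS factor, came closest (0.94 ± 0.32, adjusted p = 0.0540). The pan-epithelial scores were -0.41, -0.15 and 0.04 at day 3 and 0.19, 0.03, -0.22 and -0.07 at day 7, so they overlapped, and their part in the milk genes was not tested.

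Cholesterol synthesis was lower throughout the pathway. All 19 members measured had a lower mean at day 7. Of these 9 fell (47.4%, against 4.81% of all genes tested) and none rose. In 11 the arrays of the days did not overlap, which held for 26.3% of all genes tested in either direction. The median was -0.55. Without WT P7 replicate 1, 5 fell (26.3%, against 3.10% of all genes tested, median -0.49), and without WT P3 replicate 1, 2 fell (median -0.49). By step, the called genes were the kinase Mvk (-0.71 ± 0.16 SE) and the decarboxylase Mvd (-0.97 ± 0.21) of the mevalonate branch, the prenyl synthase Fdps (-0.53), and, after lanosterol, Cyp51 (-0.96), Msmo1 (-1.20 ± 0.28), Hsd17b7 (-0.55), Ebp (-0.49 ± 0.10), Sc5d (-0.91 ± 0.23; adjusted p = 0.0820 without WT P3 replicate 1) and Dhcr7 (-0.73). The sterol methyl oxidase Msmo1 was 9.71, 9.57 and 9.17 at day 3 and 7.96, 8.39, 7.91 and 8.87 at day 7 (adjusted p = 0.00612; without replicate 1 0.0282), and Mvd was 9.26, 8.76 and 8.46 at day 3 and 7.96, 7.76, 7.42 and 8.27 at day 7. In both genes WT P7 replicate 4 was the highest day 7 array, and in both the call was lost without WT P3 replicate 1 (adjusted p = 0.0546 and 0.0550). Hmgcs1, which makes the first committed intermediate, had a change of -0.61 ± 0.25 (adjusted p = 0.133), and Insig1, which retains the sterol sensor, -0.97 ± 0.37 (adjusted p = 0.0929). The transcription factor of the pathway, Srebf2, had a change of -0.26 ± 0.14.

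Sterol genes are known for promoters in which SREBP acts beside the CCAAT-binding factor NF-Y, so the promoters of 3 members that fell (Msmo1, Mvd and Mvk) are shown, with that of Hmgcs1, which did not pass the test but holds the sterol element searched. Of the 19 members 16 had a promoter in the RefSeq table (build GRCm38.p6; 250 bases before to 50 after each start), and all 16 held CCAAT on either strand in at least 1 listed promoter, against 41.1% of 27025 genes. TCACNCCAC, the form of the sterol element searched, was in 1 of the 16 (Hmgcs1) and in 1.44% of genes. The printed stretches are the 180 bases before the start, from position -180 to -1. They lie at chr8:64733579-64733758 on the minus strand (Msmo1), chr8:122443423-122443602 on the minus strand (Mvd), chr5:114444089-114444268 on the plus strand (Mvk) and chr13:119690171-119690350 on the plus strand (Hmgcs1). Capitals mark CCAAT or its reverse complement ATTGG and, in Hmgcs1, also TCACCCCAC.
Msmo1: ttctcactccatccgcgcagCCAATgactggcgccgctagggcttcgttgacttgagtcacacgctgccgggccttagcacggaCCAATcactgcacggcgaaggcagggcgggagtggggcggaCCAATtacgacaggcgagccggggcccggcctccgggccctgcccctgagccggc
Mvd: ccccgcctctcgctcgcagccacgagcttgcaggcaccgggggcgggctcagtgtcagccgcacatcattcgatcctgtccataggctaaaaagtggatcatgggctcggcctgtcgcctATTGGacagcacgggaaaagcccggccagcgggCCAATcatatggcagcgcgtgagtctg
Mvk: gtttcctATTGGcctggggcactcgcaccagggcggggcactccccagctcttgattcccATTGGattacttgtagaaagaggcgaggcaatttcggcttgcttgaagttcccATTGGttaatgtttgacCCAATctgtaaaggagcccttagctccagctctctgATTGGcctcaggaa
Hmgcs1: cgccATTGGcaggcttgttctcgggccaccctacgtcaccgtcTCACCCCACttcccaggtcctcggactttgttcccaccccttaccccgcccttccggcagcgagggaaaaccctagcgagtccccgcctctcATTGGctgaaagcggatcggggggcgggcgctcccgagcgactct
Within these stretches CCAAT occurs 3 times in Msmo1, 2 times in Mvd, 5 times in Mvk and 2 times in Hmgcs1. A match describes the letters and is no measured binding. The CArG box, the element of serum response factor in smooth muscle genes, was searched in the same windows as its full consensus with no mismatch, so near matches were not counted. It was found in none of the 9 myoepithelial markers with a listed promoter, and in 1.81% of all genes. Among these 9 the called members were Acta2, Mylk and Cnn1, while Myh11, Actg2 and Tagln had no listed promoter. With so low a share over all genes, 9 genes cannot show a lack of the element.

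In the list of fatty acid and triglyceride synthesis 1 of 21 members was called (4.76%, against 10.0% of all genes tested), Mid1ip1. It was 10.20, 10.17 and 9.45 at day 3 and 7.87, 7.87, 7.84 and 8.86 at day 7 (-1.83 ± 0.40 SE, adjusted p = 0.00345). Fasn, Acaca and Scd1, the synthase, carboxylase and desaturase of the pathway, had changes of -0.00 ± 0.14, -0.01 ± 0.18 and -0.02 ± 0.06. The list median was -0.14. Of 51 genes of the respiratory chain and ATP synthase 2 fell (3.92%), Ndufs4 (-0.70) and Ndufb7 (-0.55), none of them without WT P7 replicate 1. The median of the 51 was -0.14. No member was called in the lists of glycolysis and hypoxia (median -0.15), of serine, glycine, folate and amino acid supply (-0.28) and of ER folding and secretion (-0.10). 

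In the early response list 2 of 17 genes rose and 3 fell, 29.4% of the list against 10.0% of all genes tested. Egr2 was 9.81, 10.43 and 10.63 at day 3 and 8.0, 8.27, 8.89 and 8.30 at day 7, a 3.79-fold fall (-1.92 ± 0.29 SE, adjusted p = 0.000101; without replicate 1 -1.80 ± 0.31, adjusted p = 0.000839). Its relatives Egr1 (-1.01 ± 0.24) and Egr3 (-0.66 ± 0.15; adjusted p = 0.0710 without WT P3 replicate 2) fell too, and Egr1 was 9.08 in WT P7 replicate 3 against 8.05 to 8.13 in the other 3 arrays of day 7. In the other direction Ccn2, a matricellular growth factor, rose by 1.30 ± 0.29 and Dusp1, a MAP kinase phosphatase, by 0.64 ± 0.20. Fos (-0.32 ± 0.17), Jun (-0.15 ± 0.14) and Junb (-0.11 ± 0.12) did not pass. Of 16 clock genes 1 fell and 1 rose, 12.5% of the list. Bhlhe40, a repressor of clock genes, fell 2.78-fold (-1.48 ± 0.21, adjusted p = 6.01e-05) and Per1 rose 1.98-fold (0.99 ± 0.25, adjusted p = 0.0111; 0.0920 without WT P3 replicate 1). Arntl and Clock had changes of -0.22 ± 0.37 and -0.17 ± 0.12, and the labels give no time of day for the collections.

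Of 28 Wnt genes 2 rose and 2 fell, 14.3% of the list against 10.0% of all genes tested (10.7% against 5.91% without WT P7 replicate 1). Axin2, a feedback target of canonical Wnt signalling, was 8.56, 8.45 and 8.56 at day 3 and 7.69, 7.74, 7.58 and 7.75 at day 7 (-0.83 ± 0.13 SE, adjusted p = 0.000101; without replicate 1 adjusted p = 0.000493). The ligand Wnt2 fell 2.27-fold, from 8.42 to 8.96 at day 3 to 7.15 to 7.69 at day 7 (-1.18 ± 0.22). The R-spondin receptor Lgr4 rose by 0.80 ± 0.17, and the ligand Wnt5b by 0.54 ± 0.15 with all arrays only. The other members did not pass, among them Wnt4 (0.19 ± 0.15), the ligand that progesterone induces. Alx4, a homeobox factor of the mammary stroma, fell 1.92-fold, from 8.09 to 8.33 at day 3 to 7.21 to 7.38 at day 7.

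No member of the DNA replication list (30 genes) or the mitosis list (37 genes) was called, although all 30 replication genes had a lower mean at day 7 and the median was -0.39. Falls in the replication list were called under other fits: 6 of 30 in the 2 compared groups alone and 4 in the WT arrays alone. Over all 16855 genes tested, 937 and 801 fell in these fits. Without WT P7 replicate 1 each of them called 1 of 30, and the fit of all groups called 0. Array weights and the pan-epithelial score as a covariate gave 3 of 30 each, where 1407 and 981 of the 16855 fell. WT P3 replicate 3 was the highest array in both lists: its replication score was 0.94, against 0.50 and 0.22 in the other day 3 arrays, and its mitosis score was 1.25, against 0.50 and 0.30. The day 7 mitosis scores lay between 0.32 and 0.67, so the days overlapped. The smallest p in these lists were those of Tk1, thymidine kinase (-0.84 ± 0.30 SE, adjusted p = 0.0769), and Rfc5, a clamp loader subunit (-0.69 ± 0.25, adjusted p = 0.0846). Among G1 regulators 3 of 15 rose and 2 fell, with and without WT P7 replicate 1. That is 33.3% of the list, against 10.0% of all genes tested with this array and 5.91% without it. The kinase Cdk6 rose by 0.65 ± 0.13 and the inhibitors Cdkn1c by 0.65 ± 0.19 and Rbl2 by 0.36 ± 0.11, while the inhibitor Cdkn2b fell by 0.77 (± 0.17) and Mycn by 0.47 (± 0.13). Leaving out any single array of the 7 did not end the calls of Cdk6 and Cdkn2b, while it did for Cdkn1c (adjusted p = 0.215 without WT P3 replicate 1) and Mycn (0.161 without WT P3 replicate 3). Ccnd1 had a change of 0.04 ± 0.31.

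Lists of other cell types had few or no called members. No member was called in the lists of B lymphocytes (16 tested), T lymphocytes (16), cytotoxic lymphocytes (11), white adipocytes (18), skeletal muscle (22), Schwann cells (10), erythroid cells (4) and interferon-induced genes (18). A missing call is no evidence of no change, since the spread estimate took in other groups. Ms4a1 had an SD of 3.52 in KO P10, and Myh4, a muscle myosin, of 3.25 in KO P3. Myh4 had a WT change of -1.89 ± 1.06 (SE), although its WT arrays did not overlap between the days. Without the 7 arrays of the series doubted for muscle or lymphocyte transcripts or for Ptpn1, 2 B lymphocyte markers fell. Of 18 macrophage markers Mpeg1 rose (0.63 ± 0.19 SE), with all arrays only. In the plasma cell list Irf4, a transcription factor of lymphocytes and plasma cells that adipocytes also make, was 7.06, 7.36 and 7.08 at day 3 and 9.23, 9.91, 10.62 and 7.80 at day 7. Irf4 rose 4.66-fold (2.22 ± 0.58, adjusted p = 0.0130; 2.27 ± 0.63 and 0.0287 without replicate 1), and its 2 highest arrays were not replicate 1; its adjusted p was 0.0664 without WT P3 replicate 1 and 0.0588 without WT P7 replicate 3. Its list fellow Jchain, which plasma cells make in bulk, had a change of 0.11 ± 0.56, and Sdc1 fell by 0.61 (± 0.19) with all arrays only. In the acute phase and antimicrobial list 2 of 17 rose (11.8% against 10.0% of all genes tested), with all arrays only: Pigr, the carrier of IgA into milk (1.09 ± 0.35), and Chil1 (1.42 ± 0.45). Of 18 matrix proteases and inhibitors 1 fell, with all arrays only, the inhibitor Timp1 (-1.36 ± 0.44).

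Brown adipocyte transcripts varied from array to array within both days. Ucp1, the uncoupling protein of brown fat, was 12.21, 6.68 and 11.64 at day 3 and 9.23, 12.05, 11.99 and 10.95 at day 7. The list scores were 0.94, -1.0 and 0.28 at day 3 and -0.30, 1.31, 1.35 and 0.26 at day 7. Slc27a2, a fatty acid transporter in this list, was called only without WT P7 replicate 1 (2.20 ± 0.74 SE, adjusted p = 0.0557 with it; 2.63 ± 0.78 and 0.0401 without it), as was Acot4, an acyl-CoA thioesterase (1.32 ± 0.40, adjusted p = 0.0440). Pdk4, the kinase that switches off pyruvate dehydrogenase, was highest in the same 2 arrays as Slc27a2 and was called only with all arrays (1.45 ± 0.46, adjusted p = 0.0431; 0.0556 without replicate 1). The part of brown fat in these genes was not tested. The other genes called only without replicate 1 that have the largest changes were Ceacam10 (-0.98), Tomm20 (-0.49) and Cdpf1 (-0.37), and those called only with it were Glycam1, Ccl7 (-1.81), Gjb6 (1.51), Pdk4 and Chil1.

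Over the 5 stages of the WT series, day 3 was the low point for some of these genes and the high point for others. Myh11 was 9.84 ± 0.25 in nulliparous glands in oestrus (SD, n = 4), 8.64 ± 0.38 at day 3 (n = 3), 10.44 ± 0.21 at day 7 (n = 4), 10.35 ± 0.33 at day 10 (n = 3) and 10.91 ± 0.20 at day 15 (n = 4). Cdh5 had its lowest mean at day 3 as well, 10.41 ± 0.34, against 11.21 ± 0.21 in nulliparous glands and 11.11 ± 0.05 at day 7. Igf2 went from 7.53 ± 0.16 to 6.69 ± 0.28 and 8.45 ± 0.32 over the same stages. Tph1 went from 10.40 ± 0.54 to 7.82 ± 0.41 and 9.63 ± 0.17, and was lower still at day 15 (7.36 ± 0.34, n = 4). Egr2 had its highest mean at day 3, 10.29 ± 0.42, against 7.82 ± 0.47 in nulliparous glands and 8.37 ± 0.37 at day 7. Others moved in 1 direction from day 3 to day 15: Foxa1 was 9.48 ± 0.16, 8.38 ± 0.17, 7.78 ± 0.13 and 6.63 ± 0.14 at days 3, 7, 10 and 15, and Glycam1 was 6.80 ± 1.36, 10.26 ± 1.72, 12.22 ± 0.37 and 12.97 ± 0.04. The differences from stages other than days 3 and 7 are given as levels and were not tested here.

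**Figure D4:**
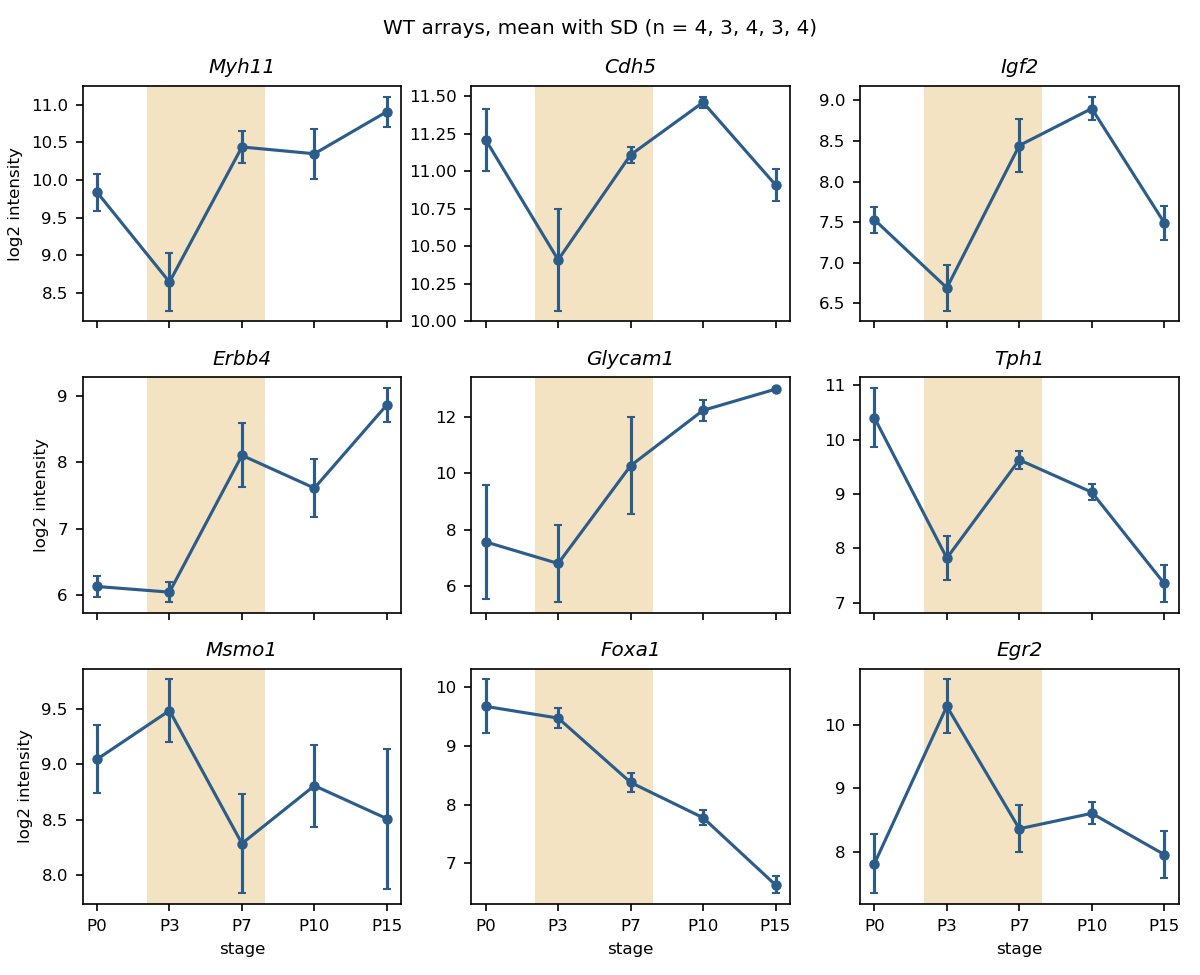
Mean log2 intensity with SD of 9 genes in WT glands, nulliparous in oestrus (P0) and at days 3, 7, 10 and 15 of pregnancy (n = 4, 3, 4, 3 and 4 arrays); the shaded band marks the compared days and each panel has its own vertical axis. Myh11, Cdh5 and Igf2 have a low mean at day 3, Egr2 and Msmo1 have a high one, Tph1 is low at days 3 and 15, and Foxa1 is lower at each later stage.

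The same days in KO glands moved the WT genes in the same direction. In KO, 2847 genes were called (16.9% of those tested; 9.56% rose and 7.33% fell). Of the 1693 WT calls 1214 were also called in KO, all in the same direction, which is 71.7% of the WT calls and 42.6% of the KO calls. Both comparisons came from the same fit and used the same spread estimate for each gene, so their calls are not independent. The sign was shared by 99.0% of the WT calls, against 74.8% of all genes tested, and 27 of the 30 largest WT changes were called in KO; the 3 that were not are Irf4, Tph1 and Far2. Across genes, which are not independent replicates, the Pearson correlation of the WT and KO changes was 0.705, and 0.582 without the 7 arrays of the series that had been doubted for muscle or lymphocyte transcripts or for Ptpn1. Erbb4 rose by 1.89 ± 0.28 (SE) in KO, Igf2 by 1.76 ± 0.22, Fmod by 2.05 ± 0.23 and Myh11 by 1.34 ± 0.19, and Itih2 fell by 2.36 (± 0.35). Of the lists, endothelial markers had 10 of 19 rises in KO (median 0.53), cholesterol genes 8 of 19 falls (median -0.49) and myoepithelial markers 4 of 15 rises (median 0.46).

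No gene was called for the difference between the WT and the KO change (limma; 0.00% of those tested, with 465 genes at an unadjusted p under 0.05), and none was with any of the arrays left out. The smallest p belonged to Tph1, the rate-limiting enzyme of serotonin synthesis, which mammary epithelium makes as a local signal. Tph1 was 8.27, 7.47 and 7.72 in WT P3 and 9.67, 9.70, 9.76 and 9.38 in WT P7 (1.80 ± 0.22 SE, adjusted p = 6.54e-06), while it was 9.06 ± 0.32 (SD, n = 3) in KO P3 and 9.37 ± 0.18 (SD, n = 5) in KO P7 (0.31 ± 0.21 SE, adjusted p = 0.349). The difference of 1.5 ± 0.30 (SE) did not pass the test in limma (adjusted p = 0.494). Alx4 (-0.67 ± 0.16), Lrfn5 (-0.89 ± 0.22), Tril (-0.81 ± 0.21) and Pdgfrb (-0.57 ± 0.15) came next, with unadjusted p of 0.000248, 0.000285, 0.000458 and 0.000603. Counts of calls differed in some lists. For example, 28 of 51 respiratory genes were lower in KO (54.9%, against 7.33% of all genes tested). Of 21 fibroblast genes 11 were higher in KO (52.4%, against 9.56% of all genes tested). However, a call in 1 genotype is no test of a difference. Among the KO arrays, KO P3 replicate 1 had a skeletal muscle score of 5.17 and KO P7 replicate 3 of 2.08, against -0.42 to -0.03 in the other 6, and KO P3 replicate 3 had a mitosis score of -1.64 against 0.17 to 0.85. Without KO P3 replicate 3, 1854 genes were called in KO.

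**Figure D5:**
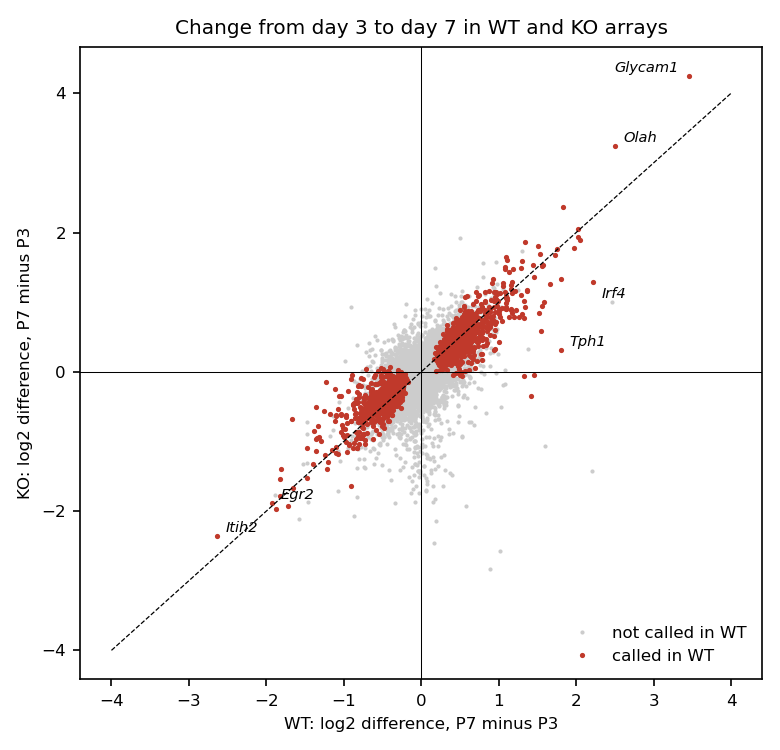
Log2 change from day 3 to day 7 in KO arrays against that in WT arrays, 1 point per gene tested (n = 16855), with genes called in WT in red and the line of equal change dashed. The 1693 red points follow the line, with Glycam1 and Olah at the upper right and Itih2 at the lower left, while Tph1 lies near a KO change of 0.31 at a WT change of 1.80.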

How the data were processed

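Total RNA was amplified as sense-strand cDNA, labelled and hybridised to Affymetrix whole-transcript arrays, per the labels' protocols. The authors deposited 1 log2 intensity per probe set and array, between 2.10 and 13.71; affy was used, per the submitters' processing notes, and the background correction, summarisation and normalisation were not given in these sources. Of 34760 probe sets, 21640 with 1 gene symbol were kept (1321 had several, 11799 none listed), and of 970 genes with several the probe set with the highest mean was taken. All 19919 symbols matched RefSeq. Genes above the table's 25th percentile (4.96) in at least 3 arrays were tested (16855; 3064 left out).

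The limma model (version 3.58.1 under R 4.3.3) covered all 37 arrays and gave each group its own mean. Tests were two-sided, adjusted over all genes tested after Benjamini-Hochberg, and "called" means an adjusted p under 0.05. The contrasts were WT P7 minus WT P3, KO P7 minus KO P3 and their difference. Tested on simulated data for WT P7 against WT P3 (16855 genes), 90% of log2 changes of 1 and 56% of 0.5 were recovered, and 5.19% of calls were false. The simulated noise of a gene had the same spread in every array, so these rates may not hold for the measured arrays. Replicates correlated at 0.986 to 0.989 in WT P3 and at 0.989 to 0.996 in WT P7, and no 2 held equal values.

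The 36 lists (710 entries, 665 measured, 660 tested), the comparison and the members were chosen with earlier results of these data known; lists got no test, and a score averages a list's values after subtracting each gene's mean. The rule for named genes took Ptpn1; the 15 largest rises and falls called with and without WT P7 replicate 1 whose arrays do not overlap, without predicted genes; up to 4 called members per list, or up to 2 with the smallest p as values; up to 5 called only with or only without that array; and the 5 with the smallest p of the genotype difference. Other list members are named as list values, chosen after their values were seen. Alternatives were no filter, all probe sets, quantile normalisation, median centring, a trended and robust prior, array weights, lymphocyte, muscle or pan-epithelial score as a covariate, a replicate block, the compared groups or the WT arrays alone, 7 doubted arrays or each array left out; both smaller fits without WT P7 replicate 1 were chosen after seeing the data. Promoters are from the RefSeq table of build GRCm38.p6, with motifs searched on both strands.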

Additional observations from a re-analysis of the deposited data

Results flagged for a closer look

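Among the 4 WT P7 arrays, 152 values (116 named genes and 36 list scores) were examined for an array far from the other 3, and 13 passed Dixon's critical value for 4 arrays; chance alone passes about 5%. WT P7 replicate 1 was the far array 4 times: the B lymphocyte score was 1.18 (others -0.37 to -0.29), and the log2 values were 7.21 for the B cell coactivator Pou2af1 (others 6.01 to 6.21), 9.65 for the macrophage pore protein Mpeg1 (9.21 to 9.26) and 9.92 for RANK ligand, Tnfsf11 (9.54 to 9.55).

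WT P7 replicate 3 was far 5 times. The immediate early score was 0.41 (others -0.02 to 0.02), with Egr1 at 9.08 (8.05 to 8.13), and the skeletal muscle score was -0.0396 (others -0.48 to -0.42). It was low for Igfbp3 at 9.77 (9.88 to 9.90) and for the purine enzyme Gart at 9.62 (9.72 to 9.73). WT P7 replicate 4 was far 4 times: Mid1ip1 was 8.86 (7.84 to 7.87), Sc5d 10.04 (9.32 to 9.37) and Ccl7 7.00 (6.66 to 6.71), all high, and Per1 was low at 9.34 (9.46 to 9.48). No cause was tested.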

How the results depend on the processing

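With each array left out in turn, the called genes of WT P7 against WT P3 ranged from 576 to 1452, those that rose from 227 to 816 and those that fell from 349 to 702. Arrays that moved a count by over 1.5 times were WT P3 replicate 1 (576), WT P7 replicate 1 (996), WT P7 replicate 2 (584 rose) and WT P7 replicate 3 (507 fell). The KO count ranged from 1854 to 2667 and that of the genotype difference was 0 throughout. Array weights gave 2830 WT calls (1423 rose, 1407 fell) and 4606 KO calls. Centring each array on its median gave 538 falls and 1035 rises, so 65.8% of calls rose against 52.2%. Without WT P7 replicate 1, the compared groups alone gave 846 calls (439 rose, 407 fell) and the WT arrays alone 750 (314 rose, 436 fell). The cause was not tested. The other alternatives gave 1316 to 2024 WT calls, and no called named gene turned its direction under any. Same-numbered replicates of WT P3 and WT P7 deviated apart (r = -0.351, -0.231 and -0.305), while those with unlike numbers had r from -0.00846 to 0.266. Deviations from the means of 3 and 4 arrays cannot decide whether the numbers pair the arrays. A replicate block gave 1578 WT calls (832 rose, 746 fell), and 69 of 77 called named genes kept their call.

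The depth of an array is not defined. In data simulated for all 37 arrays, 56% of log2 changes of 0.5 between WT P3 and WT P7 were recovered, so a smaller change had less chance of a call. The list medians of B lymphocyte markers and of 2 other lists turned sign without WT P7 replicate 1, and bulk RNA gives no cell counts.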
